A study of Mus musculus with 6 samples.

Results

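The classical histone deacetylases were followed in mouse embryonic stem cells with and without E-cadherin. The genes were Hdac1, Hdac2, Hdac3 and Hdac8 of class I, Hdac4, Hdac5 and Hdac7 of class IIa, Hdac6 and Hdac10 of class IIb, and Hdac11, the sole member of class IV. They are 10 of the 55401 genes in the count table and were found there by Ensembl identifier. The list was drawn up with the higher level of Hdac6 in the knockout already known, so the changes of these 10 genes between genotypes, with their errors, intervals and calls from the fit over all genes, are given as a description and support nothing. Hdac9, the remaining classical family member, was outside the list and is given for comparison.

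The cells were V6.5, an embryonic stem cell line from hybrid mouse embryos. One group was wild type (WT) and the other was Cdh1-/-, with both copies of the gene for the adhesion protein E-cadherin disrupted. Each group had 3 libraries, A, B and C. The labels name no treatment, and they do not say whether the libraries came from separate cultures or whether the knockout was 1 clone. P-values below therefore measure only the spread between these libraries, which may be technical.

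Histone deacetylases remove acetyl groups from lysines. Class I enzymes are mostly nuclear and work inside corepressor complexes, where they take acetyl groups off histone tails. Class IIa enzymes bind transcription factors such as Mef2, have weak deacetylase activity of their own and move between nucleus and cytoplasm. Hdac6 stays largely in the cytoplasm, where it deacetylates alpha-tubulin, Hsp90 and cortactin and binds ubiquitin. It is also known to deacetylate beta-catenin, the partner of E-cadherin at the membrane.

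Total counts per library ran from 18020719 to 23381942, and levels are given as CPM, the count of a gene scaled to the size of its library. Cdh1 lay at 569, 571 and 537 CPM in WT libraries A, B and C and at 168, 183 and 166 CPM in the knockout. The knockout libraries therefore matched their labels. Knockout library A stood apart from B and C on the second principal component (43.5 against -11.7 and -25.8). The 5 embryonic stem cell markers summed to between 2223 and 2529 CPM in WT and between 2173 and 2858 CPM in the knockout, where library A lay below and libraries B and C above the WT range. Of these markers 0 were called by edgeR or limma-voom, 1 by DESeq2 and 1 at an unadjusted p under 0.05. Over all tested genes 7.60% were called higher and 5.71% lower by edgeR. The 6 endoderm markers were all called higher by edgeR, with sums of 27.9 to 45.8 CPM in WT and 74.2 to 145 CPM in the knockout. DESeq2 and limma-voom each called 5 of them, and the groups of Dab2 overlapped. Gata4 and Sox7 of this list lie on chromosome 14, where the median log2 fold change was 0.53. Of 6 neuroectoderm markers 4 could be tested and 2 were called lower, with sums of 136 to 177 CPM in WT and 97.2 to 134 CPM in the knockout. Of 7 fibroblast markers 4 could be tested and 1 was called lower, with sums of 18.8 to 35.5 CPM in WT and 10.1 to 21.6 CPM in the knockout. DESeq2 and limma-voom each called 2 neuroectoderm markers and 1 fibroblast marker. Lum and Neurog2, members of the fibroblast and the neuroectoderm list, had at most 6 counts in every library. The part of these other cell types in the values below was not tested. In bulk RNA, fewer cells of a type and less RNA per cell cannot be told apart.

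Hdac6 had by far the largest change of the family. Its level was 125, 137 and 129 CPM in WT libraries A, B and C and 350, 282 and 318 CPM in the knockout libraries. Every knockout library lay above every WT library. The mean rose from 131 ± 6.03 CPM to 317 ± 34.1 CPM (SD, n = 3 each), a fold of 2.42 with a 95% interval of 2.11 to 2.79 (log2 fold change 1.28, SE 0.09, 95% interval 1.08 to 1.48). Only 186 of 17325 tested genes, 11 of them among the 584 tested genes of the X chromosome, had a higher log2 fold change. Leaving out 1 library at a time gave log2 fold changes between 1.20, without knockout A, and 1.37, without knockout B.

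The promoters of Hdac6 and Hdac4, the 2 genes whose levels moved most clearly, and of Hdac8, the other X-linked member, are shown to set the genes that moved beside an X-linked gene whose groups overlapped. Each is the 250 bases before the RefSeq transcription start (GRCm38.p6, minus strand), read 5′ to 3′. Capitals mark GC boxes (GGGCGG or CCGCCC) and CCAAT boxes (CCAAT or ATTGG), both strands having been searched.
Hdac6, chrX:7947890-7948139: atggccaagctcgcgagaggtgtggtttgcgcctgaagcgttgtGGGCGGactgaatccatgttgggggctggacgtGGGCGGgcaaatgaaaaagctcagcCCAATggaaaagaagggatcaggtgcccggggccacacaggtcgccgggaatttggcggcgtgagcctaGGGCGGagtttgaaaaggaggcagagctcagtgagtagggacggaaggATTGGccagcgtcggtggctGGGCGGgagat
Hdac4, chr1:92180342-92180591: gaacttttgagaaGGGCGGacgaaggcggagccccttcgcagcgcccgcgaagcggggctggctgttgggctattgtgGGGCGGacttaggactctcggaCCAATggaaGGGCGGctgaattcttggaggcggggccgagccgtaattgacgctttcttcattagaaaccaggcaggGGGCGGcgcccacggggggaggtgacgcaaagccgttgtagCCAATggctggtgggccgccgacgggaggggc
Hdac8, chrX:102505159-102505408: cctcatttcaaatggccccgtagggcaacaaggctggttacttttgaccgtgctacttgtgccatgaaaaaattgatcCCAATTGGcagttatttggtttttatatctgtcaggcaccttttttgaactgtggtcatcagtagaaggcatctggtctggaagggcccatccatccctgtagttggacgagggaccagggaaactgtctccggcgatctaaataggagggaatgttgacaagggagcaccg
The Hdac6 promoter was 61.2% G or C, with 17 CpG sites, 4 GC boxes and 2 CCAAT boxes. The Hdac4 promoter was alike, at 65.2% G or C, with 23 CpG sites, 4 GC boxes and 2 CCAAT boxes. The Hdac8 promoter was 48.4% G or C, with 6 CpG sites, no GC box and 2 overlapping CCAAT matches. It also had 1 match to the TATA box TATAAA, on the other strand, so that the printed letters read TTTATA. In the count table Hdac8 starts at 102505359, so most of this window lies inside the gene as counted. The Hdac6 and Hdac4 windows lie wholly before their genes, so the Hdac8 letters are not of the same kind of stretch. Members that were not called also had windows rich in G and C. Hdac2 had 68.8% and 27 CpG sites, Hdac11 65.2% and 17, and Hdac5 60.8% and 12, with 1 GC box each. The Hdac11 window also lies partly inside its gene as counted. The Hdac7 windows ran from 56.4% to 74%. Whether promoter letters bear on the changes was not tested. Over all 32851 RefSeq windows of this length the median was 52.4% G or C and 6 CpG sites. RefSeq windows were given for 7 of the 10 genes, in 10 windows. Hdac7 has several of these windows, so they do not stand for separate genes. A GC box was present in 6 of these 10 windows and in 32.7% of all windows, and a CCAAT box in 5 of the 10 and in 33.8% of all windows. The TCF/LEF core ATCAAAG, the binding letters of the factors that work with beta-catenin, was in none of the 10 windows and in 3.21% of all windows. The E-box CACGTG was likewise in none of the 10 and in 6.02% of all windows. These matches describe letters and not bound sites.

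Among the class I enzymes the groups overlapped for every gene, though single knockout libraries lay outside the WT range. Hdac1, a catalytic subunit of the Sin3, NuRD and CoREST complexes, lay at 324, 333 and 383 CPM in WT and 286, 330 and 340 CPM in the knockout, with a log2 fold change of -0.12 (SE 0.09, 95% interval -0.32 to 0.08). Hdac2, which shares these complexes, lay at 167, 172 and 189 CPM in WT and 183, 191 and 221 CPM in the knockout (0.18, SE 0.09, interval -0.02 to 0.38). The libraries of both genotypes overlapped for each gene. Hdac3, the catalytic subunit of NCoR/SMRT, lay at 59.6, 61.0 and 61.2 CPM in WT and 54.5, 61.7 and 60.6 CPM in the knockout (-0.04, SE 0.09, interval -0.24 to 0.16). Hdac8, which deacetylates the cohesin subunit Smc3, lay at 7.65, 7.48 and 9.25 CPM in WT and 8.95, 7.47 and 9.94 CPM in the knockout (0.11, SE 0.19, interval -0.29 to 0.51). Hdac8 is X-linked like Hdac6, and its libraries overlapped between the genotypes.

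In class IIa, Hdac4 was lower in the knockout. Its level was 72.7, 80.2 and 81.5 CPM in WT and 58.0, 55.3 and 51.9 CPM in the knockout, and the groups did not overlap. The mean went from 78.2 ± 4.73 CPM to 55.0 ± 3.06 CPM, a fold of 0.704 (log2 fold change -0.51, SE 0.09, interval -0.70 to -0.31). Hdac7 lay at 16.9, 19.9 and 18.1 CPM in WT and at 25, 23.9 and 19.1 CPM in the knockout (0.31, SE 0.14, interval 0.01 to 0.61). Only knockout library C overlapped the WT libraries. Hdac5 lay at 106, 107 and 98.1 CPM in WT and at 118, 88.7 and 87.8 CPM in the knockout (-0.08, SE 0.11, interval -0.32 to 0.16). Knockout library A was the highest of the 6 and the other knockout libraries were the lowest. Hdac9 was scarce, with WT values of 5.13, 4.90 and 5.20 CPM and knockout values of 5.31, 3.84 and 4.44 CPM (-0.17, SE 0.23).

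Hdac10, the class IIb partner of Hdac6 and a polyamine deacetylase, differed far less than Hdac6. It lay at 8.87, 8.13 and 9.40 CPM in WT and at 9.78, 10.7 and 9.59 CPM in the knockout, with no overlap but a narrow gap (log2 fold change 0.19, SE 0.16, interval -0.16 to 0.54). Hdac11, which removes long fatty acyl groups from lysines, lay at 7.16, 9.40 and 5.85 CPM in WT and at 11.3, 8.95 and 9.74 CPM in the knockout (0.42, SE 0.20, interval -0.01 to 0.85). Its groups overlapped. Exons of Gm14573 and Gm44002 on the opposite strand cover 26.0% of the Hdac11 exon bases, and whether the counting used strand is not given in the sources used here, so its level is uncertain. No opposite-strand exon overlaps Hdac6 or Hdac4.

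All 10 genes passed the filter on low counts, the lowest count being 117 for Hdac11 in a WT library. By edgeR's quasi-likelihood test with Benjamini-Hochberg adjustment over all tested genes, 1 of the 10 was called higher (Hdac6) and 1 lower (Hdac4), against 13.3% of all 17325 tested genes called in either direction. Knockout libraries lay above WT without overlap for 2 of the 10 genes, against 15.7% of all tested genes, and below for 1, against 15.0%. In either direction this was 3 of the 10 genes, against 30.7% of all. Nothing is read from these counts, since the list was chosen on this contrast. Without knockout library A the log2 fold change was -0.05 for Hdac1, 0.23 for Hdac2, 0.01 for Hdac3, 0.10 for Hdac8 and -0.54 for Hdac4. It was -0.23 for Hdac5, 0.24 for Hdac7, 1.20 for Hdac6, 0.21 for Hdac10 and 0.32 for Hdac11, so that Hdac3 changed sign and the other 9 kept theirs. With each library left out in turn, Hdac5 ran from -0.23 to 0.0012, so its sign was not stable either. The median log2 fold change over all 6 libraries was 0.14 over the 10 genes, 0.11 over the 9 without Hdac6 and -0.01 over all tested genes.

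**Figure D1:**
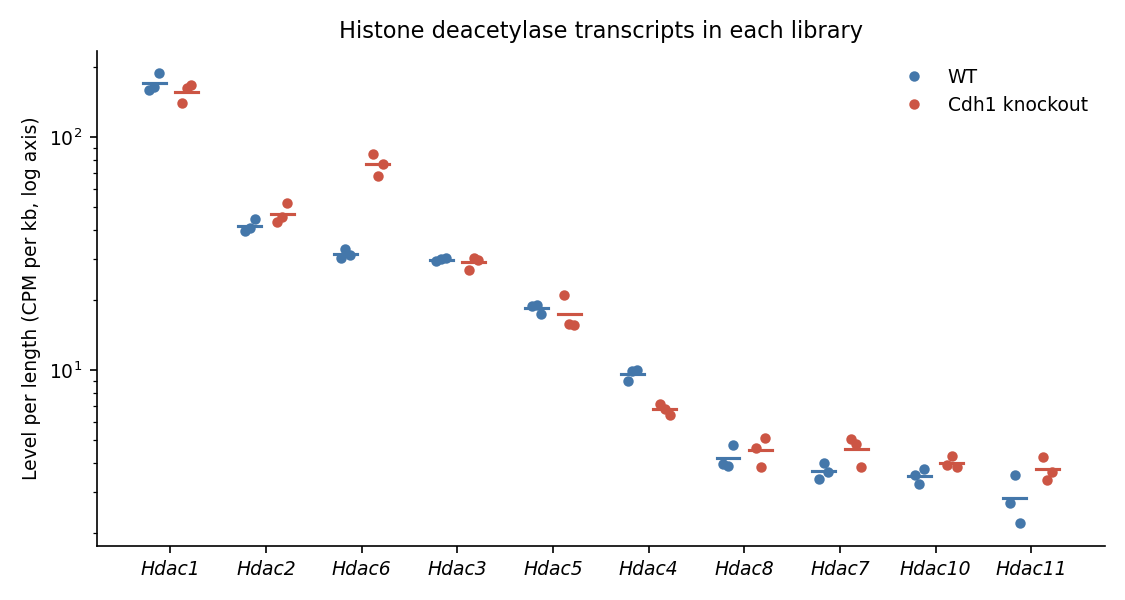
Level per kilobase of exon (CPM per kb, log axis) of the 10 genes, in the order of their WT means, with 1 point per library (blue WT, red Cdh1 knockout, 3 each) and a bar at the group mean. Hdac6 goes from a mean of 31.5 to 76.4 CPM per kb, past Hdac2, and Hdac4 from 9.65 to 6.80 CPM per kb.

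**Figure D2:**
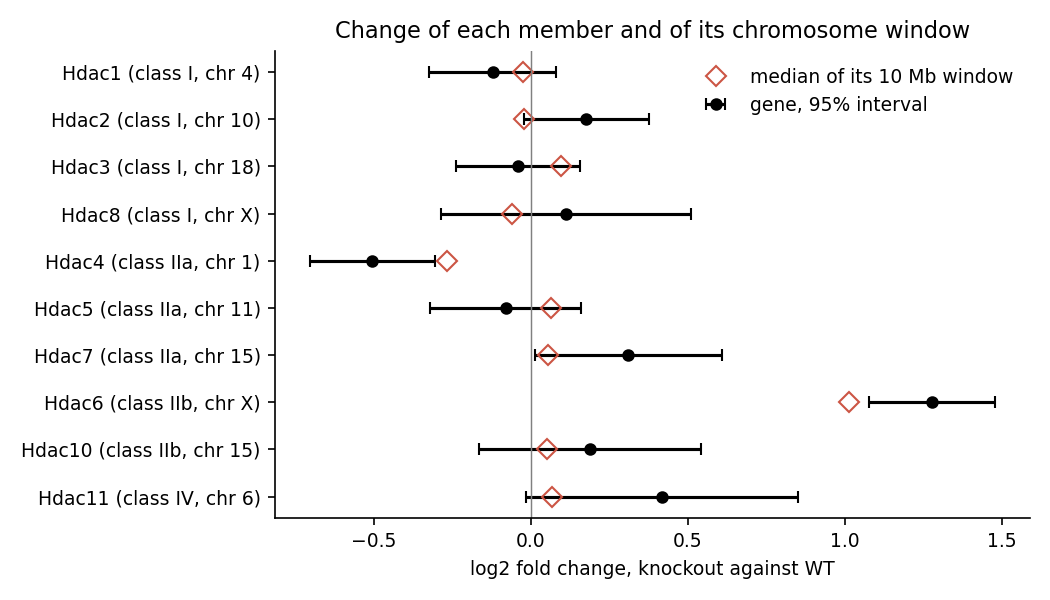
Log2 fold change of each gene, knockout against WT (black point, bar for its 95% interval, from 3 libraries per genotype), and the median log2 fold change of the genes in its own 10 Mb window (open diamond). The window median is 1.01 for Hdac6, whose own value is 1.28, and -0.27 for Hdac4, whose own value is -0.51.

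Levels of different genes were compared per kilobase of exon. In WT the order was Hdac1 at 170 CPM per kb, Hdac2 at 41.5, Hdac6 at 31.5, Hdac3 at 29.8, Hdac5 at 18.4 and Hdac4 at 9.65 CPM per kb. Below these lay Hdac8, Hdac7, Hdac10 and Hdac11, between 4.20 and 2.82 CPM per kb, each overlapping its neighbour in the order. Hdac9 was last at 0.454 CPM per kb. Hdac6 and Hdac3 were separated by a narrow margin, 30.3 CPM per kb in the lowest WT library of Hdac6 and 30.1 in the highest of Hdac3. In the knockout Hdac6 stood above Hdac2, with means of 76.4 and 46.9 CPM per kb and no overlap. The order depends in part on the length used. With the longest annotated transcript in place of all exons, the WT mean was 54.0 CPM per kb for Hdac2, 25.9 for Hdac6, 19.2 for Hdac5 and 16.9 for Hdac3, which placed Hdac3 below Hdac5.

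As a share of the summed level per kilobase of the 10 genes, Hdac6 made up 10.1%, 10.7% and 9.29% in the WT libraries and 24.8%, 19.7% and 21.1% in the knockout libraries. The mean share in the knockout was 21.9 ± 2.61%, above every WT value. The share of Hdac1, the most abundant member in both genotypes, went from 53.9 ± 1.81% to 44.7 ± 3.10%. By class, class I went from 77.9% to 67.6%, class IIa from 10.1% to 8.27%, class IIb from 11.1% to 23% and class IV from 0.899% to 1.08%. Shares of a sum are tied, so a larger share of Hdac6 makes the other shares smaller without a change in their levels. No class I gene was called on its own level. Within class IIb, Hdac10 had 1.11% in WT and 1.15% in the knockout. The summed level was 315 ± 18.5 CPM per kb in WT and 350 ± 12.5 in the knockout, with no overlap. Without Hdac6 it was 284 ± 18.4 and 273 ± 15.7 CPM per kb, and the genotypes overlapped.

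**Figure D3:**
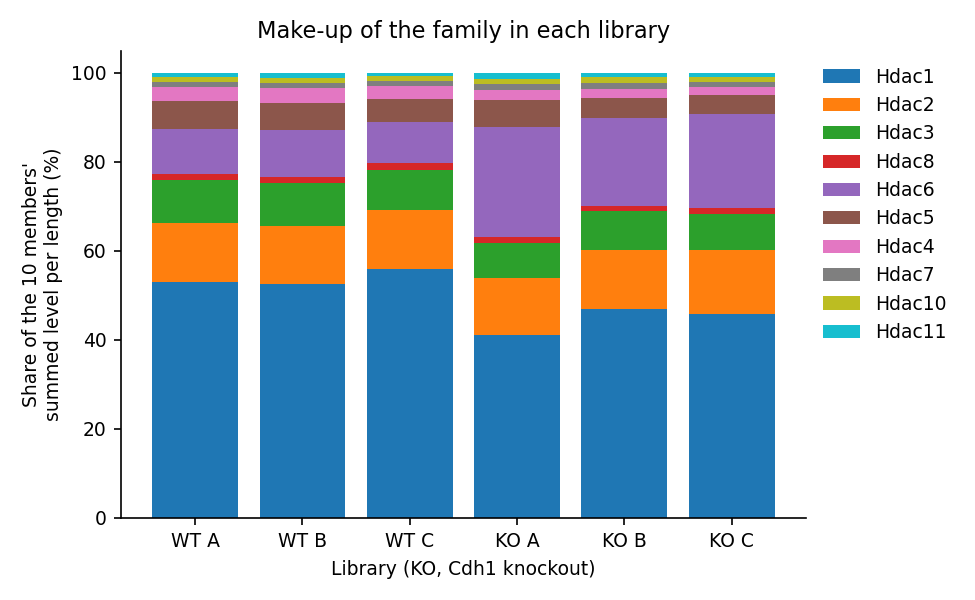
Share of each gene in the summed level per kilobase of the 10 genes (percent), 1 stacked bar per library. Hdac6 takes 9.29% to 10.7% of a WT bar and 19.7% to 24.8% of a knockout bar.

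The genes around Hdac6 were higher as well. Hdac6 lies on the X chromosome at 7930120 to 7947889 (GRCm38, minus strand). Within 250 kb of its ends 28 other genes were tested, of which 20 were called higher and 0 lower, with a median log2 fold change of 0.88. Over all tested genes 7.60% were called higher and 5.71% lower. Around the other 9 histone deacetylases between 0 and 27 neighbours were tested, and between 0 and 2 of them were called higher. The nearest tested gene on the side of the 3′ end is Eras, a Ras family gene of embryonic stem cells, 1.51 kb away. Eras lay at 18.4, 16.0 and 20.6 CPM in WT and 41.0, 51.7 and 47.8 CPM in the knockout, with a log2 fold change of 1.35 (SE 0.13, adjusted p = 1.06e-05 by edgeR's quasi-likelihood test). On the side of the promoter Gata1, a transcription factor of red blood cell development, lies 11.4 kb away. It was scarce, with 1.62, 1.31 and 1.55 CPM in WT and 2.32, 2.27 and 3.43 CPM in the knockout (0.83, adjusted p = 0.119 by edgeR).

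Further neighbours were chosen after their values were seen. Suv39h1, a methyltransferase that deposits histone H3 lysine methylation in heterochromatin, lay at 38.1, 38.7 and 37.7 CPM in WT and 86.7, 78.6 and 80.4 CPM in the knockout, with a log2 fold change of 1.10 (adjusted p = 3.85e-06 by edgeR). Rbm3, a cold-induced RNA-binding protein, lay at 174, 131 and 146 CPM in WT and 321, 331 and 292 CPM in the knockout (1.06, adjusted p = 1.29e-05 by edgeR). No knockout library overlapped a WT library for either gene.

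The raised stretch reached well beyond these neighbours. In windows of 10 Mb, over genes averaging at least 100 counts, the first window of the X chromosome held 33 genes including Hdac6. Its median log2 fold change of 1.01 was the highest of 267 windows in the genome, with 31 genes called higher and 1 lower. The 3 knockout libraries taken singly gave medians of 0.946, 0.981 and 0.948 for this window. The windows from 10 to 20 Mb and from 20 to 30 Mb had medians of 0.71 and 0.93, and the window from 30 to 40 Mb had -0.12. The 65 genes averaging at least 100 counts with starts below 30 Mb, Hdac6 left out, ran from Nudt11 to Wdr44. Of these, 58 were called higher and 2 lower, and their median fold was 1.89. Among these 65, only Prickle3, Praf2, Eras and AA414768 had a higher log2 fold change than Hdac6, at 1.30, 1.37, 1.35 and 1.89. AU022751 (-1.0) and Bcor (-0.56) were called lower. Over the remaining 307 genes of the X chromosome averaging at least 100 counts the median was 0.00, with 21 called higher and 26 lower. Scarcer genes are not part of these counts. The limits of this stretch were drawn after the values were seen, and no test was made of it.

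**Figure D4:**
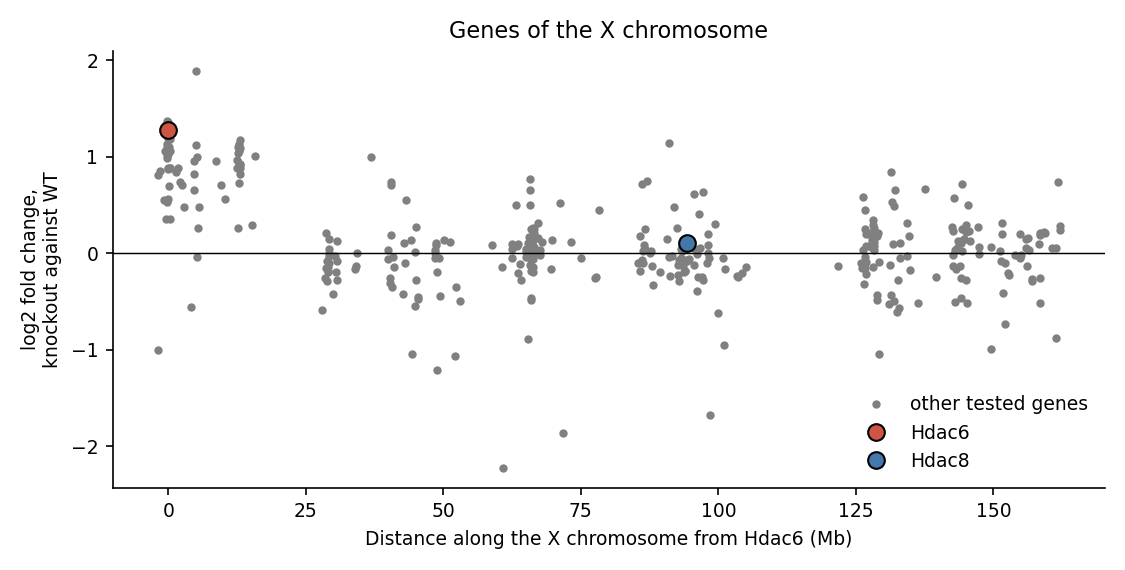
Log2 fold change of each X-linked gene averaging at least 100 counts, knockout against WT, against distance along the chromosome from Hdac6 (Mb), with Hdac6 in red, Hdac8 in blue and other genes in grey. Most of the 65 genes beside Hdac6 below 30 Mb lie well above 0, with a median of 0.92, and the other 307 genes have a median of 0.00.

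Set against this stretch, Hdac6 stood apart much less. After each library's median over the other genes of a gene's own 10 Mb window was removed, an alternative added after the data were seen, the log2 fold change of Hdac6 was 0.31 (SE 0.10), that of Eras 0.39 and that of Suv39h1 0.14. None of the 10 histone deacetylases was then called by edgeR, and 2 of them had an unadjusted p under 0.05. Hdac6 narrowly missed the threshold, with an adjusted p of 0.062 by edgeR. Hdac8 lies far along the chromosome, and its own window had a median of -0.06. Copy number was not measured in these data, and whether the stretch differs in DNA or only in RNA was not tested. The X-linked RNA Xist lay at 11.3, 13.2 and 7.95 CPM in WT and at 14.4, 18.6 and 16.4 CPM in the knockout. Ddx3y, a gene of the Y chromosome, lay between 13.4 and 15.7 CPM in WT and between 0 and 0.221 CPM in the knockout, under the floor of 6 counts. Uty lay between 6.95 and 10.7 CPM in WT and under the floor in the knockout. Eif2s3y lay between 22.0 and 26.8 CPM in WT and at 0.774, 0.0874 and 1.21 CPM in the knockout, above the floor in libraries A and C, and Kdm5d was under the floor in all 6 libraries. The part of these differences in the level of Hdac6 was not tested.

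Hdac4 also lies in a region that moved. Its window, from 90 to 100 Mb on chromosome 1, held 39 genes with a median log2 fold change of -0.27, of which 13 were called lower. Over all 1002 tested genes of chromosome 1 the median was -0.33. With the medians of chromosomes 1 and 14 removed, Hdac4 had a log2 fold change of -0.19, and with the window medians removed -0.20 (SE 0.10).

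The 5 genes whose pattern over the 6 libraries was most like that of Hdac6 were Kctd6, Adamts2, Nefl, Dzip1 and Usp11. Likeness was the root mean square difference between centred log2(CPM + 0.1) values, with 12847 genes compared. It was 0.0709 for Kctd6, 0.0719 for Adamts2, 0.0839 for Nefl, 0.0877 for Dzip1 and 0.0991 for Usp11. Kctd6, Nefl and Dzip1 lie on chromosome 14, where the median log2 fold change was 0.53. Adamts2 lies on chromosome 11. Usp11, a ubiquitin-specific protease, lies in the raised stretch of the X chromosome (1.14).

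The partners of the family were examined in 12 lists of complex subunits, substrates and counteracting enzymes, which hold 122 genes. Of the 119 that could be tested, 8 were called higher and 2 lower, or 8.40%, against the 13.3% of all tested genes. Over the alternatives the partner genes called higher ran from 3 to 13 and those called lower from 1 to 6. Their median log2 fold change was 0.00. Brms1, Mef2c and Camk4 were too low to test. Values below are log2 fold changes with edgeR's adjusted p.

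The 18 partners and substrates of Hdac6 held no gene called in the fit of all 6 libraries. None was called by edgeR's quasi-likelihood test, DESeq2 or limma-voom, 6 had an unadjusted p under 0.05 by edgeR, and their log2 fold changes ran from -0.30 to 0.31. The alpha-tubulin genes had 0.22 for Tuba1b (adjusted p = 0.118), -0.25 for Tuba1a (0.201), 0.31 for Tuba1c (0.0849) and -0.25 for Tuba4a (0.117), by edgeR. Tuba4a lies on chromosome 1, where the median log2 fold change was -0.33, and opposite-strand exons of Stk16 cover 48.6% of its exon bases. Same-strand exons of Gm49450 cover 26.2% of Tuba1a and 24.4% of Tuba1b exon bases. Of 17 alternatives, Tuba1c was called in 3, and Tuba1a, Tuba4a and Hsp90aa1 in 1 each. Atat1, the acetyltransferase that opposes Hdac6 on alpha-tubulin, had -0.30 (adjusted p = 0.254 by edgeR), and Sirt2, a further alpha-tubulin deacetylase, had 0.31 (0.119). Hsp90ab1 had 0.18 (adjusted p = 0.144), cortactin (Cttn) -0.04 (0.831) and beta-catenin (Ctnnb1) 0.07 (0.653), by edgeR. Acetylation and protein levels were not measured.

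Among the class I complexes, 2 of 14 tested Sin3 subunits were called higher and 0 lower by edgeR, with 3 called by DESeq2 and 2 by limma-voom. Sap18, an adaptor of Sin3, rose from 86.3 ± 4.46 CPM to 127 ± 4.94 CPM (change of 0.56 on the log2 scale, adjusted p = 0.000492 by edgeR), and Ing1, a reader of methylated histone H3, rose by 0.31 (0.0302). Of the 12 NuRD subunits 0 were called by edgeR, DESeq2 or limma-voom, and 5 had an unadjusted p under 0.05 by edgeR. In the CoREST list 1 of 8 was called higher, Zmym2, a zinc finger protein (0.50, adjusted p = 0.00292 by edgeR), with 2 called by DESeq2 and 1 by limma-voom. In the NCoR/SMRT list 1 of 5 was called higher, the scaffold Ncor1, which rose from 302 ± 10.2 CPM to 391 ± 54.8 CPM (0.37, adjusted p = 0.0217 by edgeR). Of the 3 MiDAC subunits 0 were called by edgeR, DESeq2 or limma-voom, and 0 had an unadjusted p under 0.05.

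For the cohesin genes around Hdac8, 2 of 11 were called higher by edgeR, and 4 were called by DESeq2 and 4 by limma-voom. The 2 were Esco2, which acetylates Smc3 (log2 fold change 0.40, adjusted p = 0.0254 by edgeR), and Wapl, which releases cohesin from DNA (0.43, 0.00273). Smc1a, a cohesin subunit (-0.26, adjusted p = 0.0526 by edgeR), and Rad21, the cohesin subunit that separase cleaves (0.25, 0.0594), were called in 7 and 6 of 17 alternatives, both DESeq2 and limma-voom among them. Of 20 tested partners of class IIa enzymes 1 was called higher, the kinase Camk2d (0.62, adjusted p = 0.0336 by edgeR), which was not called by limma-voom or with library totals as the scaling. Among 10 genes of polyamine metabolism, the pathway of Hdac10 substrates, 2 were called lower and 0 higher. Sms, the spermine synthase gene on the X chromosome, lay at 72.5, 86.7 and 76.6 CPM in WT and at 39.7, 39.3 and 39.5 CPM in the knockout. The groups were far apart, and the log2 fold change was -0.99 (SE 0.10, adjusted p = 1.43e-05 by edgeR). Srm, the spermidine synthase gene, had -0.32 (adjusted p = 0.0387 by edgeR).

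Of 10 acetyltransferases, the enzymes that oppose the family, 1 was called higher. Kat6b, a histone H3 acetyltransferase, rose from 272 ± 28.1 CPM to 445 ± 86.5 CPM (change of 0.71 on the log2 scale, adjusted p = 0.00162 by edgeR). Of the 7 sirtuins, deacetylases of another family that need NAD, and the 3 BET readers of acetylated lysine, 0 were called by edgeR, DESeq2 or limma-voom. In each of these lists 1 gene had an unadjusted p under 0.05 by edgeR.

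The called partners were not spread evenly over chromosomes. Sap18, Zmym2, Esco2, Wapl and Kat6b lie on chromosome 14 and were all 5 partner genes on that chromosome, 5 of the 8 called higher. None of these 5 was called by edgeR once the medians of chromosomes 1 and 14 were removed. Their log2 fold changes were then 0.02 for Sap18, -0.04 for Zmym2, -0.14 for Esco2, -0.11 for Wapl and 0.17 for Kat6b. Calls of Ing1, Ncor1, Camk2d, Esco2 and Srm were each lost when single libraries were left out, with the highest adjusted p of edgeR at 0.126 for Ing1, 0.109 for Ncor1, 0.142 for Camk2d, 0.126 for Esco2 and 0.154 for Srm. Sms was called in every alternative tried.

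**Figure D5:**
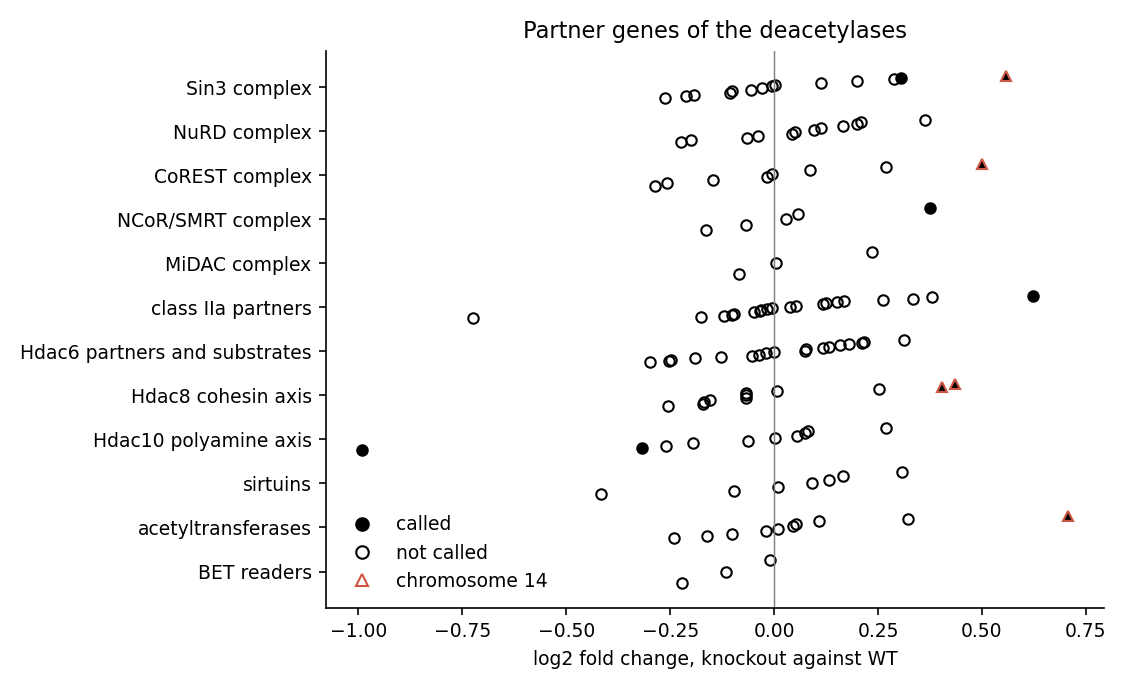
Log2 fold change of each tested partner gene, knockout against WT, by list. Called genes are filled in black, genes that were not called are open, and genes of chromosome 14 are triangles with a red outline. All 5 triangles are called genes on the right of their lists. List medians lie between -0.12 and 0.09, and Sms at -0.99 is the lowest point.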

How the data were processed

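RNA of 3 WT and 3 Cdh1-/- V6.5 libraries was isolated with TRIzol and sequenced from directional libraries, per the labels' protocols. The deposited file is 1 table of raw counts for each gene, with exon coordinates and lengths. The submitters' processing notes name cutadapt 2.10, STAR 2.7.5b, featureCounts 2.0.1 and GRCm38. The strand setting and annotation release are not given in the sources used here. Of 55401 identifiers, 55141 received a symbol from GENCODE M21. Low counts were mostly even (78.1% to 83.1% of counts of 1 to 10), which can arise when both mates of a pair are counted, so the floor was 6 counts, or 0.262 to 0.332 CPM in a library, for counting error only.

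Genes were filtered with filterByExpr, which left 17325 of 32417 genes with a count. Counts were scaled by TMM and fitted by edgeR 4.0.16 (R 4.3.3, quasi-likelihood, genotype only). P-values were adjusted by Benjamini-Hochberg over all tested genes, and calls were made at an adjusted p under 0.05. The common biological coefficient of variation was 0.137. The members and lists were chosen with earlier results of these data known. The text names all members, Hdac9, up to 5 called genes per partner list, the 5 genes most like Hdac6 and its nearest tested neighbours, and others are marked as picked later, apart from partners given as values without a call. Mideas is listed as Elmsan1. Alternatives were RLE, upper quartile and library-total scaling, removal of the medians of chromosomes 1 and 14, 2 other filters, counts divided by 2, a replicate block, an adjusted p under 0.01, each library left out, limma-voom (limma 3.58.1) and DESeq2 1.42.0. Removal of 10 Mb window medians was added after the data were seen.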

Additional observations from a re-analysis of the deposited data

How the results depend on the processing

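Of the histone deacetylases, 1 was called after removal of chromosome 1 and 14 medians and 0 after removal of 10 Mb window medians (edgeR, with 2 at an unadjusted p under 0.05), against 2 otherwise, also with each library left out. Partner genes called, 10 in all, became 5 with chromosome medians removed, 6 with window medians removed and 5 at an adjusted p under 0.01, and ran from 5 without WT A, with 6 without WT B or WT C, to 15 without knockout A. All genes called, 2307, became 1242 at an adjusted p under 0.01, and ran from 1374 without WT A, with 1470 without WT B, to 2784 without knockout A. Chromosome and window medians reversed Esco2 (-0.14 and -0.10), Wapl (-0.11 and -0.12) and Zmym2 (-0.042 and -0.10), and window medians reversed Sap18 (-0.039). The cause of these changes was not tested beyond the removal itself. Whether replicate letters pair the libraries is uncertain. Deviations of same-letter libraries correlated at 0.165 for A, -0.149 for B and 0.396 for C, and those of different letters at -0.394 to 0.261. With the replicate block, 15 partner genes and 2686 of all genes were called, with Hdac6 at 1.27 and Hdac4 at -0.51. Counts were lowest for Hdac9, Hdac11, Hdac8 and Hdac10, whose standard errors were also the largest of the family. The part of depth in these was not tested. With 3 libraries per genotype, the intervals of 7 of the 10 members include 0, which does not show that their levels were the same.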

Other observations

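Further genes in the raised stretch of the X chromosome were looked up after the data were seen. Kdm6a, a demethylase of histone H3 lysine, lay at 96.6, 92.0 and 90.2 CPM in WT and at 123, 136 and 152 CPM in the knockout, with a log2 fold change of 0.56 (adjusted p = 0.000979 by edgeR's quasi-likelihood test). Its groups did not overlap, but its change was less than that of most genes in the stretch. Usp9x, a deubiquitinase, rose from 763 ± 57.6 CPM to 1524 ± 140 CPM (1.0, adjusted p = 7.56e-06 by edgeR). Bcor, a corepressor known to recruit histone deacetylases, went the other way among these neighbours. It lay at 68.9, 64.8 and 82.7 CPM in WT and at 41.0, 46.4 and 59.2 CPM in the knockout (-0.56, adjusted p = 0.0111 by edgeR), with no overlap.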
